A study of Mus musculus with 6 samples.

Results

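Amino acid transporter genes were examined in primary cultures of articular chondrocytes, which build the cartilage of joints. Sema4D, or semaphorin 4D, which signals through plexin-B receptors, was added to some cultures and not to others. The cells came from cartilage of ICR mice at postnatal day 4, and all libraries shared this strain, tissue and age. RNA-seq gave 3 control and 3 Sema4D libraries, read out as FPKM, which divides a gene's fragments by transcript length and by the library's mapped total. The dose and duration of Sema4D, the control medium and the number of animals or cultures are not given in the sources used here, so the spread behind every p-value is that between libraries and may be technical. Members were chosen by symbol alone: every gene of the SLC1, SLC7, SLC36, SLC38 and SLC43 families, plus Slc3a1, Slc3a2, Slc6a6 and Slc6a9, without Slc7a1, Slc7a2 and Slc7a11. The rule found 41 of the 24346 symbols measured, and it used no expression value.

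Cells take up part of the amino acids that they build into protein, and each carrier family handles its own set. Most light chains of the SLC7 family reach the cell surface only when bound to a heavy chain, either 4F2hc (Slc3a2) or rBAT (Slc3a1), and they exchange amino acids across the membrane. Many SLC1 and SLC38 carriers use the sodium gradient to load cells. Some SLC36 carriers move small amino acids with protons, often out of lysosomes, and SLC43 carriers work as uniporters. In cartilage these carriers supply the glycine, proline and glutamine that go into collagen and proteoglycan.

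By markers the libraries held chondrocyte transcripts, as labelled, and also high levels of type I and III collagen genes. All 13 chondrocyte markers found in the file passed the filter on low values (a mean of 1 FPKM), with a summed level of 16374 to 17621 FPKM in control and 13023 to 14091 FPKM in Sema4D libraries, and 12 of them fell, among them Col2a1 (-0.26 on the log2 scale), Acan (-0.73) and Sox9 (-0.87), with limma adjusted p = 0.00144, 2.07e-07 and 2.32e-06. After quantile normalization Col2a1 did not pass (-0.07, adjusted p = 0.459). At the deposited scaling 22.2% of all 11603 tested genes fell and 24.5% rose. Most defining markers of blood, vessel and nerve cells were low, and those of fibroblasts and osteoblasts were not. The leukocyte gene Ptprc averaged 0.0819 FPKM in control and 0.0896 FPKM in Sema4D libraries, the 12 macrophage markers summed to 26.6 to 33.7 FPKM in control and 24.3 to 27.8 FPKM with Sema4D, and the neutrophil genes S100a9 and Elane were listed at 0 throughout. The macrophage sum was mostly Lyz2, which fell (-0.46) as did Tyrobp (-0.70), while Cd14 rose from 1.84 ± 0.239 to 3.95 ± 0.448 FPKM (limma adjusted p = 0.00769, 0.0153 and 0.000172). In the fit with no filter Adgre1 and Fcer1g were higher and C1qa, C1qb and C1qc lower. Of 8 endothelial markers only Eng passed the filter, and it rose from 22.7 ± 0.658 to 27.7 ± 0.728 FPKM (0.27, limma adjusted p = 0.000432). The neuronal genes Snap25 and Rbfox3 were listed at 0, and the erythroid and neutrophil markers summed to at most 0.704 FPKM in any library. Muscle markers summed to 12.99 to 17.3 FPKM in control and 10.3 to 13.6 FPKM with Sema4D, and neural and glial markers to 80.3 to 81.7 and 48.1 to 51.8 FPKM, nearly all of it S100b, which chondrocytes also express. Fibroblast and osteoblast markers, mainly type I and III collagen genes, summed to 8368 to 8962 FPKM in control and 7718 to 8065 FPKM with Sema4D. Of the 7 tested 1 rose and 4 fell: the fibroblast receptor gene Pdgfra rose from 22.8 ± 0.678 to 42.3 ± 0.661 FPKM (0.86), and Dpt fell from 23.2 ± 1.05 to 11.5 ± 1.17 FPKM (-0.95, limma adjusted p = 2.46e-07 and 1.01e-05). These marker genes were named after their values were seen. The part of these marker levels in the changes below was not tested, and in bulk samples fewer cells of a type and less RNA per cell cannot be told apart.

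The cells carried a few abundant transporter transcripts and many that were nearly silent. Of the 41 members, 22 reached an average of 1 FPKM across the 6 libraries and were tested, 11 were below that level, and 8 were listed at 0 in every library. The 5 highest, Slc3a2, Slc7a5, Slc38a2, Slc1a5 and Slc1a4, held 66.1% ± 0.331 of the members' summed FPKM in control and 63.3% ± 0.471 with Sema4D (mean ± SD, n = 3; control precedes Sema4D wherever values are paired). The summed level of all members was 705, 722 and 730 FPKM in control and 692, 683 and 686 FPKM with Sema4D.

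**Figure D1:**
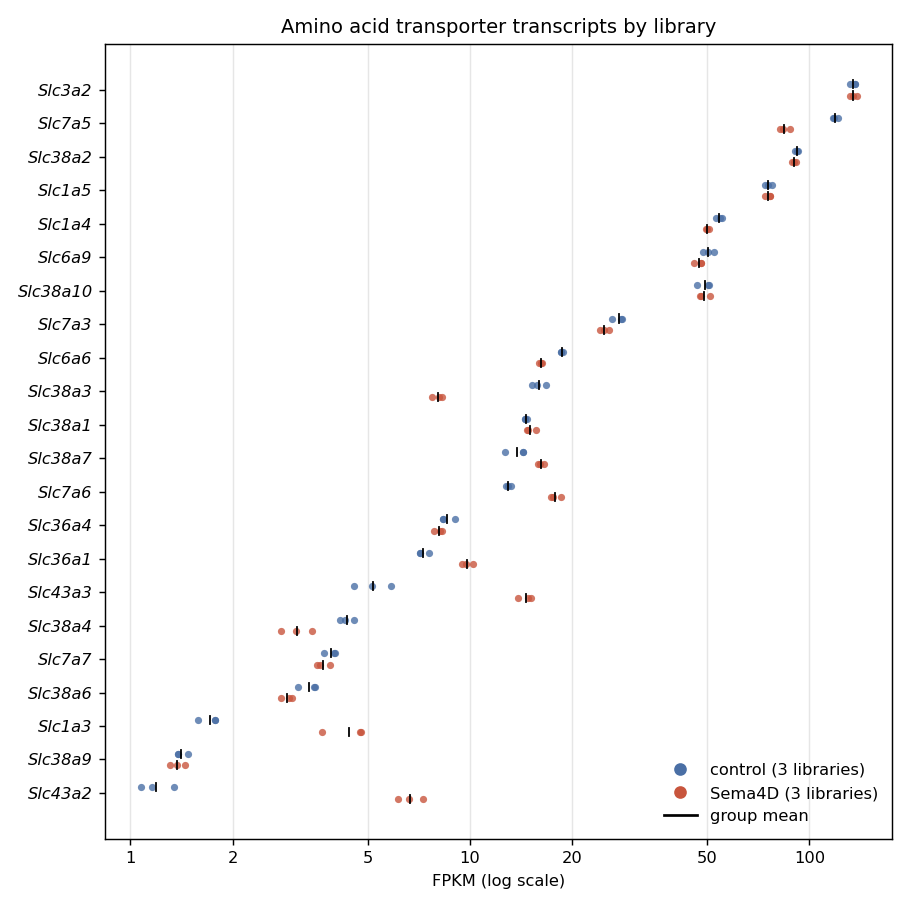
FPKM of the 22 tested members (log axis) in each of the 3 control and 3 Sema4D libraries, with the group mean as a bar, ordered by the control mean. The levels run from Slc43a2, at 1.19 FPKM in control, to Slc3a2, at 135 FPKM, and the groups lie clearly apart for Slc43a2, Slc43a3, Slc1a3, Slc38a3 and Slc7a5.

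With Sema4D 6 of the 22 tested members rose and 6 fell, by limma on log2(FPKM + 1) with a Benjamini-Hochberg adjusted p under 0.05 over all genes. That is 54.5% of them, and 46.7% of all 11603 tested genes passed the same threshold (24.5% higher and 22.2% lower). At the deposited scaling the share of changed transporters was thus near the background. The groups did not overlap for 16 of the 22, or 72.7%, beside 56.6% of all tested genes. Their median log2 fold change was -0.03, beside 0.01 over all tested genes. Changes of over 1.5-fold on this scale were seen in 4, the rises of Slc43a2, Slc43a3 and Slc1a3 and the fall of Slc38a3, or 18.2%, beside 10.4% of all tested genes (6.66% higher and 3.71% lower). The FPKM sum over all symbols was 493457 ± 711 in control and 522490 ± 4466 with Sema4D. With the same FPKM sum in every library 5 members rose and 11 fell, beside 2002 and 3801 of the 11603 tested genes. Among all calls the share that was higher went from 52.4% to 34.5%. After quantile normalization 6 members rose and 9 fell, beside 2167 and 3415 of all tested genes, and that share was 38.8%. Members whose call depends on the scaling are named with their values.

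**Figure D2:**
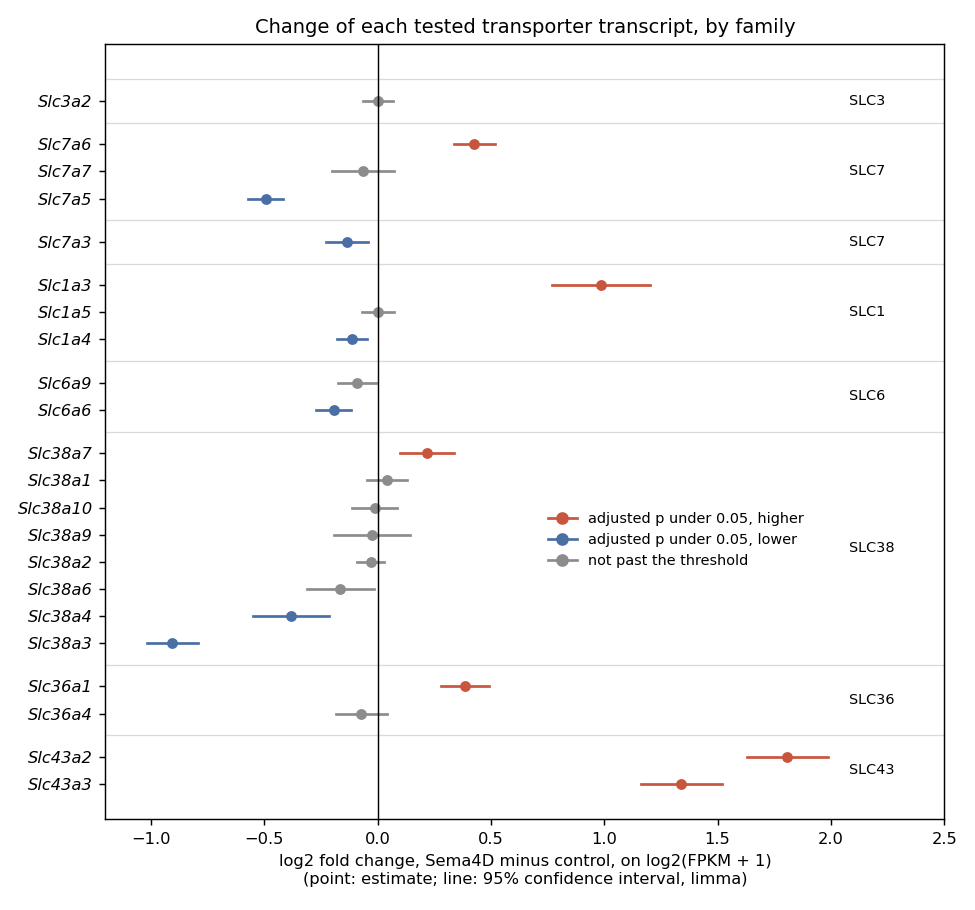
Log2 fold change of each tested member on the log2(FPKM + 1) scale, Sema4D minus control, with its 95% confidence interval from limma, grouped by family. The 2 tested SLC43 members stand to the right of all the others, Slc38a3 at -0.90 is the lowest, and Slc3a2 lies at 0.00.

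The heavy chain did not pass the test, while its main light chain fell and another rose. Slc3a2 encodes 4F2hc, also known as CD98, the shared heavy chain of the LAT and y+LAT exchangers (chromosome 19, 8706882 to 8723369 in mm10). It was the most abundant member, at 132, 136 and 136 FPKM in control and 138, 132 and 134 FPKM with Sema4D. The groups overlapped, and the log2 difference was 0.00 with a 95% confidence interval of -0.07 to 0.07 (limma adjusted p = 0.996). With the same FPKM sum in every library it passed as lower, at -0.082 (adjusted p = 0.0397), and after quantile normalization at -0.095 (adjusted p = 0.0245), within a range of adjusted p of 0.0245 to 0.998 over the alternatives.

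Slc7a5 encodes LAT1, which brings in leucine and other large neutral amino acids in exchange for intracellular ones (chromosome 8, 121881146 to 121907686). Its level was 117, 118 and 122 FPKM in control and 81.9, 83.7 and 87.7 FPKM with Sema4D. All Sema4D libraries lay below all controls, and Slc7a5 fell by 0.49 on the log2 scale (SE 0.033, limma adjusted p = 6.43e-06), a ratio of control to Sema4D means of 1.41. It ranked 2 in level among the members in control and 3, behind Slc38a2, with Sema4D.

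Slc7a6, on the same chromosome (106168219 to 106198714), encodes y+LAT2, which exports arginine in exchange for glutamine and sodium. It stood at 12.95, 13.2 and 12.8 FPKM in control and 17.6, 18.5 and 17.3 FPKM with Sema4D. It rose by 1.37-fold in mean FPKM (log2 fold change 0.43, SE 0.040, limma adjusted p = 4.55e-05), with no overlap between groups. Slc7a7, the y+LAT1 light chain of the same exchange, was at 3.90 ± 0.166 and 3.69 ± 0.174 FPKM, and did not pass (-0.06, interval -0.20 to 0.07, adjusted p = 0.402). Slc7a7 shares 228 bases of its locus with Oxa1l, and without the strand setting reads from that stretch cannot be told apart.

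Since FPKM is per length, the light chains can be summed and set beside the heavy chain. Slc7a5, Slc7a6, Slc7a7, Slc7a8 and Slc7a10 together gave 134, 136 and 139 FPKM in control and 104, 106 and 109 FPKM with Sema4D. Per FPKM of Slc3a2 the sum was 1.02, 1.002 and 1.02 in control and 0.755, 0.805 and 0.816 with Sema4D, a ratio that multiplying a whole library by a factor leaves as it is. Slc7a5 made up 87.4% ± 0.357 of this sum in control and 79.2% ± 0.819 with Sema4D, and Slc7a6 made up 9.52% ± 0.259 and 16.7% ± 0.844, all given as a description with no test. Slc7a11, the xCT light chain that imports cystine, is outside the member rule, and adding it gave 140 ± 2.02 and 113 ± 2.71 FPKM.

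**Figure D3:**
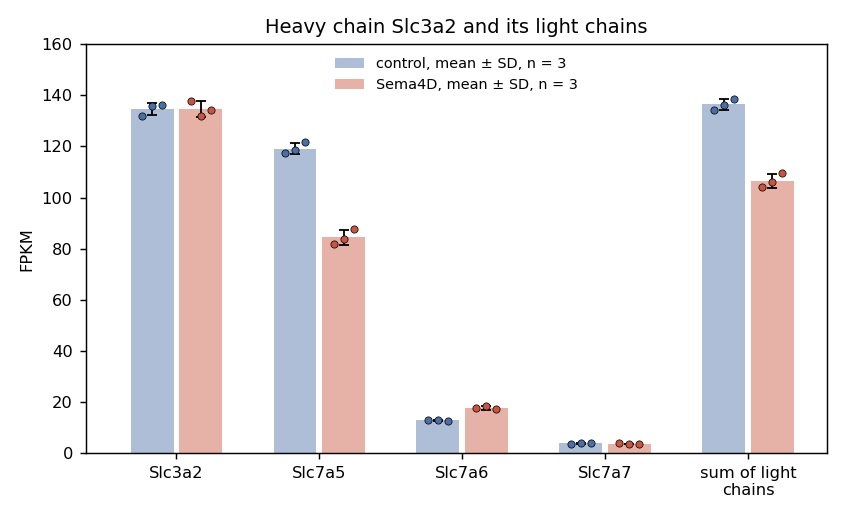
FPKM of the heavy chain gene Slc3a2, of 3 of its light chain genes and of the sum of 5 light chain genes, as bars of the mean with SD (n = 3 per group) and a point per library. Slc3a2 overlaps between groups, while Slc7a5 and the sum are lower and Slc7a6 is higher in every Sema4D library.

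The members of the cationic branch of SLC7 do not need a heavy chain. Slc7a3, which carries arginine and lysine, was at 28.1, 26.3 and 27.9 FPKM in control and 24.2, 25.7 and 24.9 FPKM in Sema4D libraries, and it fell narrowly (-0.13, limma adjusted p = 0.0251). That call was lost with the replicate block (adjusted p = 0.0621) and without control replicate 1 (0.0721) or 3 (0.0804) or Sema4D replicate 1 (0.0866) or 3 (0.0591), with all alternatives between 0.00305 and 0.0866. Slc7a3 shares 1086 bases of its locus with Snx12, which stood at 31.9 and 35.2 FPKM on average. The branch members left out of the rule moved in opposite directions, Slc7a2 rising from 57.4 ± 0.332 to 270 ± 8.95 FPKM and Slc7a1 falling from 36.2 ± 1.42 to 30.4 ± 0.488 FPKM (limma adjusted p = 4.04e-10 and 0.000912), and Slc7a11 rose from 3.40 ± 0.212 to 6.30 ± 0.0573 FPKM (adjusted p = 1.22e-05).

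Both tested uniporter family genes rose, and their log2 fold changes were the highest of the 22 tested members. Slc43a2 encodes LAT4, which lets branched-chain amino acids, phenylalanine and methionine flow down their gradient (chromosome 11, 75529915 to 75577575). It was the lowest of the tested members in control, at 1.16, 1.08 and 1.34 FPKM, and reached 6.63, 6.14 and 7.26 FPKM with Sema4D. Each Sema4D library was far above each control, with means 5.60-fold apart (log2 fold change 1.81, SE 0.078, limma adjusted p = 3.93e-07). Slc43a3, a relative known to carry purine nucleobases rather than amino acids (chromosome 2, 84936545 to 84958509), was at 4.55, 5.17 and 5.85 FPKM in control and 14.8, 15.1 and 13.9 FPKM with Sema4D. Its groups were also far apart (2.82-fold in mean FPKM, 1.34, SE 0.077, adjusted p = 2.38e-06). Slc43a1, which encodes LAT3 and lies near Slc43a3 on chromosome 2 (84838855 to 84863586), stayed under the filter, at 0.699, 0.648 and 1.05 FPKM in control and 0.678, 0.470 and 0.480 FPKM with Sema4D, and its groups overlapped.

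A promoter window of Slc43a2 from RefSeq (GRCm38.p6, the assembly of mm10, chr11:75531444-75531743, plus strand, 250 bases before to 50 after a transcript start) is shown because this gene had the highest log2 fold change of the tested members. Capitals mark its single match to the NF-kappaB consensus, which begins 226 bases before the start.
Slc43a2: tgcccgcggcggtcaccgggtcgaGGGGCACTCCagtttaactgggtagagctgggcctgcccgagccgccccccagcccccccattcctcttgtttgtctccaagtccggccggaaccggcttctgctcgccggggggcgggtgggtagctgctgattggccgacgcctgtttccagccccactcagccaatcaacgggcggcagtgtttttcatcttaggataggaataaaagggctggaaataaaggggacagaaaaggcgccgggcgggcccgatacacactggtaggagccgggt
Such a match, on either strand, was found in 4.51% of all 32851 promoter windows of this length and in at least 1 window of 5.14% of the 27025 genes that have one. A second Slc43a2 window held none. Windows were found for 30 of the 41 members, and 5 of these genes held a match: Slc43a2, which rose, Slc36a4 and Slc7a7, which did not pass, and Slc1a6 and Slc7a10, which were under the filter. A match is a description of letters and not a site shown to be used.

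Of the 3 tested SLC1 carriers 1 rose, 1 fell and 1 did not pass. Slc1a3 encodes GLAST, a high-affinity importer of glutamate and aspartate (chromosome 15, 8634124 to 8710807). It was at 1.78, 1.59 and 1.77 FPKM in control and 4.78, 4.75 and 3.66 FPKM in Sema4D libraries. The third Sema4D library was the lowest of its group and still above every control, and Slc1a3 rose by 2.57-fold in mean FPKM (log2 fold change 0.99, SE 0.094, limma adjusted p = 5.14e-05). Slc1a5, the glutamine exchanger ASCT2, was at 74.1, 75.4 and 77.6 FPKM in control and 76.6, 74.1 and 76.5 FPKM with Sema4D, with overlapping groups and a difference of 0.00 (interval -0.07 to 0.07, adjusted p = 0.979). Slc1a4, the alanine, serine and cysteine carrier ASCT1, was at 53.0, 55.2 and 54.5 FPKM and at 49.9, 49.8 and 50.5 FPKM. It fell slightly with no overlap (-0.11, limma adjusted p = 0.014, range 0.000984 to 0.0478 over the alternatives).

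The other 4 SLC1 genes were under the filter, and their values below 0.1 FPKM describe few fragments. Slc1a2, the glutamate importer GLT-1, was at 0.0342, 0.0595 and 0.0386 FPKM in control and 0.260, 0.198 and 0.109 FPKM with Sema4D. Slc1a6, the glutamate carrier EAAT4, went the other way, at 1.10, 0.944 and 0.792 FPKM and then 0.384, 0.381 and 0.315 FPKM. The groups did not overlap for either, and in the fit with no filter both passed (limma adjusted p = 0.0251 and 0.00118). Slc1a1, the glutamate carrier EAAC1, was at 0.465, 0.621 and 0.527 FPKM and at 0.397, 0.425 and 0.432 FPKM. Its groups did not overlap but it did not pass (adjusted p = 0.114), and Slc1a7 reached at most 0.159 FPKM in any library.

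Among the 8 tested sodium-coupled SLC38 carriers 1 rose and 2 fell, or 37.5%, beside 46.7% of all tested genes. The most abundant of them, Slc38a2 and Slc38a10, did not pass. Slc38a2 encodes SNAT2, the amino acid carrier that cells adjust to supply, and ranked 3 in control. It was at 92.8, 92.2 and 90.9 FPKM in control and 90.0, 91.2 and 88.9 FPKM with Sema4D, with overlapping groups (-0.03, interval -0.09 to 0.03, limma adjusted p = 0.37). With the same FPKM sum in every library Slc38a2 passed as lower (-0.11, adjusted p = 0.00961, range 0.00961 to 0.585 over the alternatives). Slc38a1, the glutamine carrier SNAT1, was at 14.7, 14.6 and 14.6 FPKM and at 15.6, 14.8 and 14.8 FPKM, with no overlap and a difference of 0.04 (interval -0.05 to 0.13), and it did not pass (adjusted p = 0.412). Slc38a10, at 49.3 ± 2.29 and 48.8 ± 1.84 FPKM, differed by -0.01 (interval -0.11 to 0.09, adjusted p = 0.841).

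Slc38a3 encodes SNAT3, the system N carrier of glutamine, histidine and asparagine (chromosome 9, 107651154 to 107668968). It was at 15.2, 16.8 and 15.8 FPKM in control and 8.29, 7.72 and 8.13 FPKM in Sema4D libraries. Every Sema4D library was well below every control, and the ratio of control to Sema4D means was 1.98 (log2 fold change -0.90, SE 0.049, limma adjusted p = 1.74e-06). Slc38a4, the SNAT4 carrier, also fell, from 4.15, 4.30 and 4.55 FPKM to 3.07, 2.78 and 3.44 FPKM (-0.38, SE 0.073, adjusted p = 0.00294). Slc38a4 lies with Slc38a1 and Slc38a2 on chromosome 15, between 96571418 and 97055956. Slc38a6 was at 3.12, 3.49 and 3.49 FPKM and at 2.99, 2.92 and 2.77 FPKM, with no overlap, and did not pass (-0.16, adjusted p = 0.0653, range 0.0178 to 0.166 over the alternatives). It passed as lower with the same FPKM sum in every library (-0.23, adjusted p = 0.0178), after quantile normalization (-0.19, 0.0328) and without control replicate 1 (-0.21, 0.0384). Slc38a6 shares 237 bases with Trmt5.

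Among the members the lysosomal carriers Slc38a7 and Slc36a1 rose, while the lysosomal Slc38a9 did not pass. Slc38a7, known to export glutamine and asparagine from lysosomes (chromosome 8, 95835920 to 95853577), was at 12.7, 14.3 and 14.4 FPKM in control and 15.8, 16.1 and 16.6 FPKM in Sema4D libraries. It rose by 1.17-fold in mean FPKM with no overlap (log2 fold change 0.22, SE 0.052, limma adjusted p = 0.00951), and it missed the threshold with the same FPKM sum in every library (0.14, adjusted p = 0.0603, range 0.0073 to 0.0603 over the alternatives). Slc36a1, the proton-coupled carrier PAT1 of alanine, glycine and proline (chromosome 11, 55204322 to 55236330), was at 7.15, 7.15 and 7.56 FPKM and at 9.77, 10.2 and 9.51 FPKM. Its Sema4D libraries were all above the controls (1.35-fold, 0.39, SE 0.046, adjusted p = 0.000214). Slc38a9, the arginine sensor that activates mTORC1 at the lysosome, was at 1.38, 1.38 and 1.48 FPKM and at 1.45, 1.31 and 1.37 FPKM, with overlapping groups, and did not pass (-0.02, interval -0.19 to 0.14, adjusted p = 0.812). Slc36a4, a proline and tryptophan carrier, was at 8.31, 8.32 and 9.07 FPKM and at 8.17, 7.87 and 8.26 FPKM. The groups did not overlap, but it did not pass (-0.07, interval -0.18 to 0.04, adjusted p = 0.269), although it did with the same FPKM sum in every library (-0.14, adjusted p = 0.039, range 0.039 to 0.626 over the alternatives).

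The promoter windows of these 2 genes are shown because both hold the E-box CACGTG, a palindrome at the core of sites of TFEB and TFE3, the regulators of lysosomal genes, and of MYC. The windows are chr11:55204090-55204389 on the plus strand for Slc36a1 and chr8:95853442-95853741 on the minus strand for Slc38a7 (RefSeq, GRCm38.p6), and capitals mark the E-boxes.
Slc36a1: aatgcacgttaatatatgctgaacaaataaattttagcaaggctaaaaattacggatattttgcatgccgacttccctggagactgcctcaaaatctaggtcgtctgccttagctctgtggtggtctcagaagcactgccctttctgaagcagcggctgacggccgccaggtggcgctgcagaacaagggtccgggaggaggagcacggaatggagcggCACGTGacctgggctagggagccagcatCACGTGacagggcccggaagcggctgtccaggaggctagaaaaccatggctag
Slc38a7: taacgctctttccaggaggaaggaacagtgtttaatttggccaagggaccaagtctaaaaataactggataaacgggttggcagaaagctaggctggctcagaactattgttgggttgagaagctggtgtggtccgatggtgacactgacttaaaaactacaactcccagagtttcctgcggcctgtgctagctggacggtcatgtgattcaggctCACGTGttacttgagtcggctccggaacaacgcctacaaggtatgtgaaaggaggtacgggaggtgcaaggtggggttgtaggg
The E-boxes began 31 and 3 bases before the transcript start in Slc36a1 and 34 bases before it in Slc38a7. Of all promoter windows 7.15% held CACGTG, as did a window of 8.09% of all genes. Among the 30 members with a window 7 genes held it: Slc36a1 and Slc38a7, Slc1a6, Slc1a7, Slc43a1 and Slc7a14, which were under the filter, and Slc38a5, listed at 0. The core of the C/EBP-ATF response element, TGATGNAA on either strand, which marks many genes induced by amino acid shortage, was in 3.97% of all windows and in a window of 4.51% of all genes. Of the same 30 members Slc1a4 and Slc7a7 held it.

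Of the taurine and glycine carriers the first fell slightly and the second did not pass. Slc6a6, the taurine carrier TauT (chromosome 6, 91684048 to 91759063), was at 18.5, 18.6 and 18.8 FPKM in control and 16.3, 16.2 and 16.0 FPKM in Sema4D libraries. The libraries of each group lay close together, and Slc6a6 fell by 0.19 on the log2 scale (SE 0.033, limma adjusted p = 0.00154). Slc6a9 encodes GlyT1, which brings in glycine, the most frequent residue of collagen. It was at 48.6, 50.3 and 52.3 FPKM and at 48.1, 47.8 and 45.8 FPKM, with no overlap between groups, and did not pass (-0.09, interval -0.18 to -0.01, adjusted p = 0.0779). It passed as lower with the same FPKM sum in every library (-0.17, adjusted p = 0.00561), after quantile normalization (-0.15, 0.0127) and without control replicate 1 (-0.12, 0.0405), with all alternatives between 0.00561 and 0.227.

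The remaining members were at or near 0. Slc7a8, the LAT2 light chain, was at 0.232, 0.418 and 0.233 FPKM in control and 0.740, 0.405 and 0.824 FPKM with Sema4D, with overlapping groups. Slc36a2, the carrier PAT2, was at 0.0333, 0.0257 and 0.0536 FPKM and at 0.275, 0.215 and 0.414 FPKM, with no overlap. In the fit with no filter 3 of the 11 members below 1 FPKM passed as higher (Slc1a2, Slc36a2 and Slc7a8) and 1 as lower (Slc1a6). That fit called 3006 of all 17461 genes higher and 2786 lower. Those genes include the 11603 above the filter, so this share is no like background for members below 1 FPKM. The share among all genes below 1 FPKM was not computed. Slc7a4, an orphan of the cationic branch, averaged 0.666 and 0.434 FPKM, and Slc7a14 averaged 0.112 and 0.123 FPKM. The heavy chain gene Slc3a1 was at 0.0706, 0.0819 and 0.0284 FPKM in control and 0, 0.0285 and 0 FPKM with Sema4D, and it shares 1731 bases with Prepl, at 8.43 and 8.07 FPKM. Slc7a10 was at 0.0425, 0.0658 and 0.0342 FPKM and at 0, 0.0343 and 0 FPKM. The light chain genes Slc7a9, Slc7a12, Slc7a13 and Slc7a15, the proton-coupled Slc36a3 and the sodium-coupled Slc38a5, Slc38a8 and Slc38a11 were listed at 0 in all 6 libraries.

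Genes around amino acid supply were read from the same fit. Of 22 genes of the ATF4 amino acid response, which lack of amino acids induces, 8 rose and 11 fell (median log2 fold change -0.06), or 86.4% in both directions together, beside 46.7% of all tested genes. Cebpb, a partner of ATF4, rose from 16.2 ± 0.42 to 84.2 ± 4.01 FPKM, the serine hydroxymethyltransferase gene Shmt2 from 144 ± 0.596 to 187 ± 1.21 FPKM and the stress factor gene Atf3 from 10.01 ± 0.843 to 19.02 ± 0.199 FPKM (limma adjusted p = 2.32e-09, 4.46e-06 and 4.96e-06). Those 3 had the smallest p of the list, in which more genes fell than rose. Among the 11 falls were Chac1 (-0.70), Pycr1 (-0.61) and Ddit3 (-0.32), named after their values were seen (limma adjusted p = 5.58e-06, 0.000223 and 0.000295). Atf4 itself was slightly lower, from 393 ± 4.47 to 359 ± 7.60 FPKM (-0.13, adjusted p = 0.00363). Asns, the asparagine synthetase gene and a standard ATF4 target, was at 135 ± 7.37 and 135 ± 4.39 FPKM (0.00, adjusted p = 0.943).

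Of 20 aminoacyl-tRNA synthetase genes, which charge tRNAs with amino acids, 3 rose and 6 fell (median -0.05), or 45% beside 46.7% of all tested genes. The strongest by p were Gars (-0.32), Eprs (-0.19) and Iars (-0.15), and the 3 rises were 0 under either other scaling or without Sema4D replicate 1, and 1 without control replicate 2 or 3 or Sema4D replicate 2. Of 27 genes of amino acid sensing and mTORC1, 9 rose and 5 fell (median 0.03), or 51.9%, also near that background. Tfe3, a lysosomal gene regulator, rose from 21.1 ± 0.841 to 36.3 ± 1.64 FPKM (0.75), and the leucine sensor relatives Sesn1 (-0.79) and Sesn3 (-0.52) fell (adjusted p = 3.03e-06, 6.39e-06 and 6.48e-06 by limma). Tfeb, the relative of Tfe3, fell from 6.60 ± 0.627 to 5.13 ± 0.443 FPKM (-0.31, limma adjusted p = 0.0122), a gene named after its values were seen. Without control replicate 2 or 3 or Sema4D replicate 2, the rises of that list were 5, and with the same FPKM sum in every library they were 5 and the falls 10.

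Of 16 tested genes of glutamine, glutamate and proline metabolism 3 rose and 6 fell (median -0.08), or 56.2% beside 46.7% of all tested genes. With the same FPKM sum in every library 3 rose and 11 fell. Gclm and Gclc, the subunits that start glutathione synthesis from glutamate, rose (0.48 and 0.60, limma adjusted p = 3.77e-05 and 8.78e-05). Among the 6 falls were Pycr1 (-0.61), also in the ATF4 list, and Bcat1 (-0.32), both named after their values were seen (limma adjusted p = 0.000223 and 0.000135). Of 18 amino acid and related carriers outside the member rule 6 were tested, and 4 rose and 0 fell (median 0.22), or 66.7% of 6. Over the same 6 genes, 2 rose under either other scaling. Slc16a10, the TAT1 uniporter of aromatic amino acids, rose from 0.824 ± 0.202 to 2.99 ± 0.111 FPKM (1.14, limma adjusted p = 2.07e-05). It averaged under 1 FPKM in control and passed the filter only through its Sema4D libraries, so its rise in the count above is no independent support. With no filter 5 of 14 carriers rose and 1 fell, beside 3006 and 2786 of all 17461 genes. Slc6a17, a neutral amino acid carrier of vesicles, rose by 0.35 and the creatine carrier Slc6a8 by 0.22 on the log2 scale (adjusted p = 0.00181 and 0.0138). For Slc6a8 the call was lost with the same FPKM sum in every library (adjusted p = 0.0868) and after quantile normalization (0.0528).

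**Figure D4:**
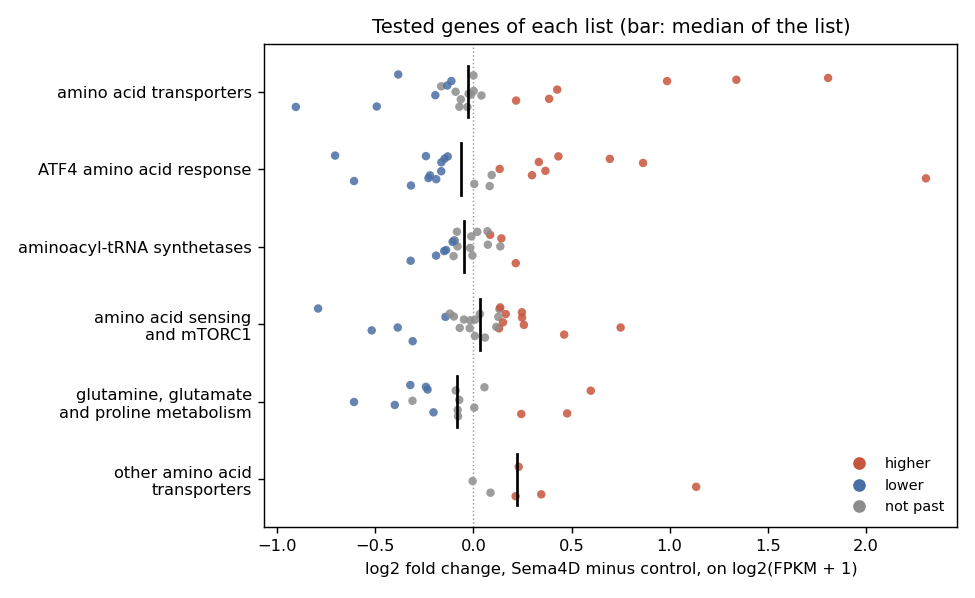
Log2 fold change on the log2(FPKM + 1) scale of each tested gene of the amino acid transporters and of 5 neighbouring gene lists, coloured by call, with a bar at the list's median. Every list except that of the 6 other transporters holds genes past the threshold on both sides of 0, and the medians run from -0.08 to 0.22.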

How the data were processed

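The file held FPKM values, deposited by the authors as 1 column per library. The submitters' processing notes list Cufflinks 2.2.1, TopHat2 2.0.13, SAMtools 0.1.19 and Bowtie2 2.2.3 and the build mm10, without saying what each did. Annotation, strand setting, filters and scaling between libraries are not given in the sources used here. Since these are not counts, count models were not used. The steps of low values over 1681 genes of 1 transcript gave an estimated 1.34e+07 to 1.79e+07 fragments per library, so 1 fragment on 1 kilobase was worth 0.0559 to 0.0746 FPKM. Within a tolerance of 0.15, 80.1% to 86.1% of the low values were whole fragments, too few to recover counts. A listed 0 may be a failed estimate, since Rpl26 was at 0 in 1 library and at up to 20.5 FPKM in others.

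The 11603 genes averaging 1 FPKM or more were fitted with limma 3.58.1 (lmFit, eBayes with a trend, two-sided, no replicate block) in R 4.3.3 on log2(FPKM + 1), which understates the change of low genes, after a test on simulated data. Figures used Python 3.11.15 and matplotlib 3.10.9. Positions, overlaps and promoter windows came from RefSeq GRCm38.p6, where all 41 members matched. The members, gene lists and motifs were chosen with earlier results of these data known. By the naming rule every member is accounted for, with values per library for those that changed by over 1.5-fold or did not overlap and for 8 chosen members, beside the 3 tested genes of smallest p of each list and Slc7a1, Slc7a2, Slc7a11, Atf4, Asns, Col2a1, Acan and Sox9. One gene that this rule names is not reported here. The alternatives were a pseudocount of 0.1, no filter, a mean of at least 5 FPKM, the same FPKM sum in every library, quantile normalization, a replicate block and each library left out. No set test was run.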

Additional observations from a re-analysis of the deposited data

How the results depend on the processing

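The labels number the replicates of both groups 1 to 3. Deviations of same-numbered libraries from their group means correlated at 0.14, -0.08 and -0.05 for numbers 1, 2 and 3. With 3 libraries per group, whose deviations from a shared mean depend on each other, these values cannot show whether same-numbered libraries were paired. Each number had its highest correlation with another number in 2 of 3 cases. With the replicate block 6 members rose and 5 fell, and 2638 genes of all tested rose and 2356 fell. Slc7a3 (-0.13) was the only member whose call was lost with the block.

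Over the 22 tested members and 12 alternatives, 258 values were computed, of which 242 kept direction and side of the threshold or stayed uncalled. Rises numbered 6 and falls 5 to 7 with each library left out. With the same FPKM sum in every library 11 members fell (median -0.10), 11 synthetase genes fell and 0 rose, 5 sensing genes rose and 10 fell, 11 glutamine-list genes fell and 2 other carriers rose. After quantile normalization the members' median was -0.082, 11 synthetase genes fell and 0 rose, 5 sensing genes rose and 8 fell, 10 glutamine-list genes fell and 2 other carriers rose. Slc3a2 was lower under these scalings, at -0.082 and -0.095. The median over all tested genes was 0.01, and it was -0.00249 with no filter, 0.0162 with a mean of at least 5 FPKM, -0.068 with the same sum and -0.049 after quantile normalization. Synthetase rises ran from 0 to 3 and sensing rises from 5 to 10 with each library left out. With no filter 1 other carrier fell, and with a mean of at least 5 FPKM 2 of 4 rose. The calls of Slc38a7, Slc38a2, Slc36a4, Slc38a6 and Slc6a9 that changed are given with their values above. The cause was not tested. At the estimated depth a member below 0.1 FPKM rests on few fragments.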

Other observations

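Genes within 200 kilobases of the most changed members were read from the same fit, a choice made after the members' values were seen. Around Slc43a3 on chromosome 2, 4 of 5 tested neighbours rose and 0 fell by limma with an adjusted p under 0.05, beside 24.5% higher and 22.2% lower over all tested genes. Ube2l6, the conjugating enzyme of the interferon-induced modifier ISG15, rose from 4.12 ± 0.299 to 16.0 ± 1.34 FPKM (mean ± SD, n = 3, log2 fold change 1.73, adjusted p = 2.88e-07). Serping1, the C1 inhibitor gene of the complement system, rose from 1.98 ± 0.493 to 4.27 ± 0.159 FPKM (0.83, adjusted p = 0.000389). Tnks1bp1 and Timm10 rose by 0.36 and 0.30 on the log2 scale, and Ssrp1, between 66.3 ± 2.01 and 67.9 ± 2.34 FPKM, did not pass. Around Slc43a2 on chromosome 11, 3 of 14 tested neighbours rose and 4 fell, the largest being a fall of Tlcd2 (-0.51). Around Slc38a3 on chromosome 9, 3 of 13 rose and 4 fell, so the called shares around Slc43a2 and Slc38a3 were near the 46.7% of all tested genes. Among the latter were the semaphorin genes Sema3f, from 23.8 ± 0.192 to 15.5 ± 0.341 FPKM (-0.59, adjusted p = 2.63e-06), and Sema3b, from 11.3 ± 0.845 to 6.61 ± 0.886 FPKM (-0.69, adjusted p = 0.000334). Neither tested neighbour of Slc7a5 passed, nor did Nipbl, the 1 tested neighbour of Slc1a3.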
